A study of Rattus norvegicus with 4 samples.

Results

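The nuclear genes for the subunits of the mitochondrial respiratory chain were followed in rat hippocampal neural progenitor cells on 4 arrays. A gene was a member where a probe set carried it as its only symbol and that symbol started with Nduf (complex I), was Sdha to Sdhd (complex II), started with Uqcr or was Cyc1 (complex III), started with Cox and a digit from 4 to 8 (complex IV), or started with Atp5 (complex V). This gave 81 subunit genes, read by 90 probe sets, of 14217 named genes on the array. Complex I had 36 genes, complex II 4, complex III 8, complex IV 17 and complex V 16. The 6 genes named Ndufaf, which encode assembly factors of complex I, were kept as a group of their own.

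Complexes I and II pass electrons from NADH and succinate to coenzyme Q, complex III passes them to cytochrome c, and complex IV passes them to oxygen. Complexes I, III and IV pump protons across the inner mitochondrial membrane, and complex V, the ATP synthase, uses their return to make ATP. A few subunits of each complex carry the redox centres or the catalytic sites, and many smaller, accessory subunits surround them. In the neural lineage, progenitors are known to draw heavily on glycolysis, and neurons depend on the respiratory chain. The subunits encoded in mitochondrial DNA were not analysed here, since none of the array's gene names matched them.

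The cells came from the hippocampus of Fisher 344 rats. The first group had received KHS101, a compound that the series title describes as speeding up the formation of neurons, at 5 uM, and the second had received KHS101 at 1.7 uM. The third had received retinoic acid at 1 uM with forskolin, an activator of adenylyl cyclase, as the positive control (RA + forskolin below), and the last had received the solvent DMSO, at 0.1% in the protocol. How much forskolin was used is not stated in the labels, and only retinoic acid is named in the design text. All 4 groups were early-passage cells plated at 1000 cells per square centimetre in N2 medium and kept for 4 days with the additions. These were primary cells in culture, which can hold several cell types.

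Each group was 1 array, so the differences below were not tested against any spread between samples, no p-value is given, and precision is limited by the 4 arrays. All values are log2 expression values as deposited, a difference is a difference of 2 such values, and levels of different genes are not set against each other. Values under log2 = 5 were taken as at the floor of specific signal, and a gene was measured in a comparison if at least 1 of its 2 arrays was above the floor. Repeat measurements within an array came from 5 member genes with 2 or more measured probe sets. Over the 6 comparisons their probe sets gave the same direction in 29 of 30 cases, with a median gap of 0.10 and a largest gap of 0.48 log2, in Ndufv3. Of the progenitor markers, 5 of the 7 on the array were above the floor, among them Nes and Sox2, and their summed linear level was 40114 with KHS101 at 5 uM, 53958 at 1.7 uM, 63337 with RA + forskolin and 68765 with DMSO. The members of the list went different ways: Fabp7 gave 12.48, 13.39, 15.09 and 14.59 in that order of groups, and Nes gave 11.89, 11.97, 10.67 and 11.36. Hes5 and Pax6 were at the floor. The oligodendrocyte lineage had 5 of 6 markers above the floor on at least 1 array, with sums of 13021, 20931, 41956 and 32058 in the same order of groups. Mog was above it with RA + forskolin alone (5.03) and Cspg4 on no array. Of the astrocyte markers 2 of 6 and of the immature neuron markers 3 of 6 were above the floor, with Gfap, Aqp4 and Dcx at it. In the same order of groups the astrocyte sums were 10917, 11792, 19923 and 10088. These sums followed S100b, which gave 13.33, 13.44, 14.21 and 13.15, lowest with DMSO. Slc1a3, the other astrocyte marker above the floor, gave 8.997, 9.198, 9.741 and 9.717, with both KHS101 arrays below DMSO. The immature neuron sums were 4432, 5856, 4208 and 6298, and the members of this list also went different ways. Gap43 gave 11.77, 12.24, 11.52 and 12.44 and Elavl4 gave 7.07, 7.27, 7.31 and 7.43, both highest with DMSO. Tubb3 gave 9.48, 9.59, 9.98 and 8.85, lowest with DMSO. Of 3 endothelial markers on the array, Kdr was above the floor with RA + forskolin alone (6.54). All 5 microglia and all 5 fibroblast markers were at the floor. The intensity of the 3′ over the 5′ probe set of the beta-actin control was 1.54 log2 with KHS101 at 5 uM, 1.40 at 1.7 uM, 1.37 with RA + forskolin and 1.26 with DMSO. In the same order the hexokinase control gave 0.96, 0.80, 0.66 and 0.69, and the GAPDH control gave -0.11, -0.14, -0.12 and -0.16. The part that cell mixture or RNA quality has in the differences below was not tested, and in such bulk RNA fewer cells of a type and less RNA per cell cannot be told apart.

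Promoters were compared first, because respiratory chain genes are known to share binding sites for nuclear respiratory factor 1 (NRF1), for ETS factors such as GABP, and for YY1. RefSeq promoter windows of build GRCr8, from 250 bases before to 50 bases after the start of transcription, were given for 72 of the 81 subunit genes. They were searched on both strands for 4 motifs of 7 letters: NRF1 as GCATGCG, ETS as CCGGAAG, YY1 as AAGATGG and the ATF4 element as GATGCAA. None of the 4 strings contains another. The windows of 5 members are shown from 90 bases before to 30 bases after the start, on the strand of the gene, with motif matches of either strand in capitals. They are Ndufa3, Uqcrh and Atp5me, which had the largest or second largest reductions of their complexes with KHS101 at 5 uM, Uqcrc1, which holds both the NRF1 and the YY1 motif, and Cox7a2l, which was among the highest and holds none of the motifs in this stretch. These 5 were chosen after their values were seen.
Ndufa3: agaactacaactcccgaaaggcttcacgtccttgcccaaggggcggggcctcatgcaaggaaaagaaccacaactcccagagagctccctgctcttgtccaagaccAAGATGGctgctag
Uqcrh: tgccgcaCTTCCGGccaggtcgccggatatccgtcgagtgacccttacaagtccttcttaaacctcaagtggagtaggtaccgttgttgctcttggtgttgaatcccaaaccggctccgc
Atp5me: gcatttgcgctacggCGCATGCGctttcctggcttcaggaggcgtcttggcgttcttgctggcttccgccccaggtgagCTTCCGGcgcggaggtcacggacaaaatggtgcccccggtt
Uqcrc1: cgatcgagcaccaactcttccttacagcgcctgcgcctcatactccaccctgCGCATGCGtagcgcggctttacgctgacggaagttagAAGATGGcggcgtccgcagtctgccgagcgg
Cox7a2l: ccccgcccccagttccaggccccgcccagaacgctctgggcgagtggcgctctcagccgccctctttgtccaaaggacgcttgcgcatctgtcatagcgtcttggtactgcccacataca
In Ndufa3 (chr1:74515529-74515648, minus strand) the capitals mark a YY1 match just after the start. In Uqcrh (chr5:134790853-134790972, minus strand) they mark an ETS match on the opposite strand. In Atp5me (chr14:1464770-1464889, plus strand) the first run is an NRF1 match that reads on both strands and the second an ETS match. Of the windows shown, only this one uses a start (1464860) that differs from the annotated gene start (1464788). That gene start lies within the NRF1 run and before the ETS match. In Uqcrc1 (chr8:118468133-118468252, plus strand) an NRF1 match lies before a YY1 match at the start. Cox7a2l lies at chr6:16936484-16936603 on the plus strand.

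The YY1 motif was in 19 of the 72 subunit promoters (26.4%), against 7.84% of the 11700 promoters of genes on the array and 7.30% of all 27457 in the table. Of these 19 matches, 14 read in the direction of transcription. The whole motif lay between 10 bases before and 40 bases after the start in 14 subunit promoters (19.4%), against 3.41% of promoters of genes on the array. This narrower window was not part of the planned search and was used for YY1 alone. The motif contains ATG, and whether these matches are start codons was not looked up. ETS matches were in 20 of the 72 subunit promoters (27.8%), against 15.1% on the array. NRF1 matches were in 9 (12.5%, against 5.44%) and ATF4 matches in only 4 (5.56%, against 2.03%). Shares over genes of a similar expression level were not taken. YY1 matches were in 17 of 56 promoters of accessory subunits and in 2 of 16 promoters of the catalytic core subunits. A match is a description of these letters and not a site of binding. The median difference of KHS101 at 5 uM from DMSO was -0.09 for the 18 measured subunits with a YY1 match and -0.16 for the 49 without, and it was -0.07 with an ETS match (20 genes) and -0.17 without (47 genes).

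**Figure D1:**
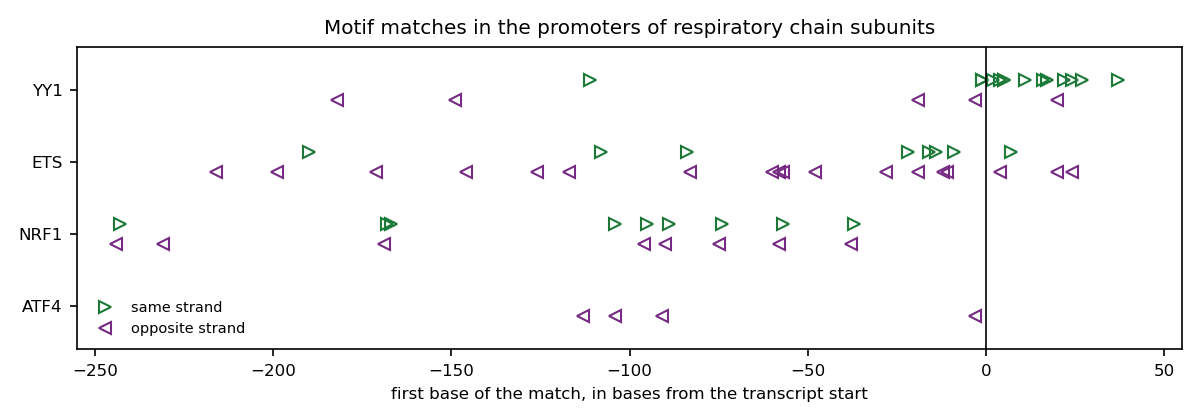
Position of each motif match in the promoters of the respiratory chain subunits, with the first base of the match in bases from the transcript start on the x axis and 1 row for each motif. Triangles pointing right are matches on the strand of the gene and triangles pointing left are on the opposite strand. Most YY1 matches lie around and just after the start, while ETS and NRF1 matches are spread out and lie mostly before it.

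With KHS101 at 5 uM against DMSO, the accessory subunits had a median below 0 and the catalytic core a median at 0. Of 81 subunits 75 were measured, 74 of them above the floor on all 4 arrays, and their median difference was -0.13, against 0.00 over all 8543 measured genes. Below 0 were 51 of the 75, or 68%, against 49.8% of all measured genes. At 2-fold, 0 subunits were higher, against 6.16% of all measured genes, and 2 were lower, against 8.10%. At 1.5-fold (0.585 log2) 2 were higher, against 14.6%, and 9 were lower, against 16.1%. With arrays centred on their median or quantile normalized, 1 subunit instead of 2 was lower by 2-fold, with a floor of 4, 1 instead of 0 (Cox7a1) was higher by 2-fold, and with a floor of 6, 1 instead of 2 was higher by 1.5-fold. Read against these shares, the counts past a limit are no excess over all genes. Genes with a mean level over 11 give a closer comparison, since 68 subunits lie there: the median was -0.14 for these subunits and -0.02 for all 1934 such genes, and 69.1% against 51.6% were below 0. The 17 catalytic core subunits had a median of 0.00, with 8 of them below 0. The 58 measured accessory subunits, meaning all other members, had a median of -0.18, with 43 of them below 0 (74.1%). These other members include the c subunit gene Atp5mc3, the inhibitor Atp5if1 and the pseudogene symbol Cox6c-ps1. The core in turn holds all 5 genes of the F1 head of complex V, so both names are approximate. The 3′ to 5′ control values given above were also highest on this array, and their part in these differences was not tested.

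**Figure D2:**
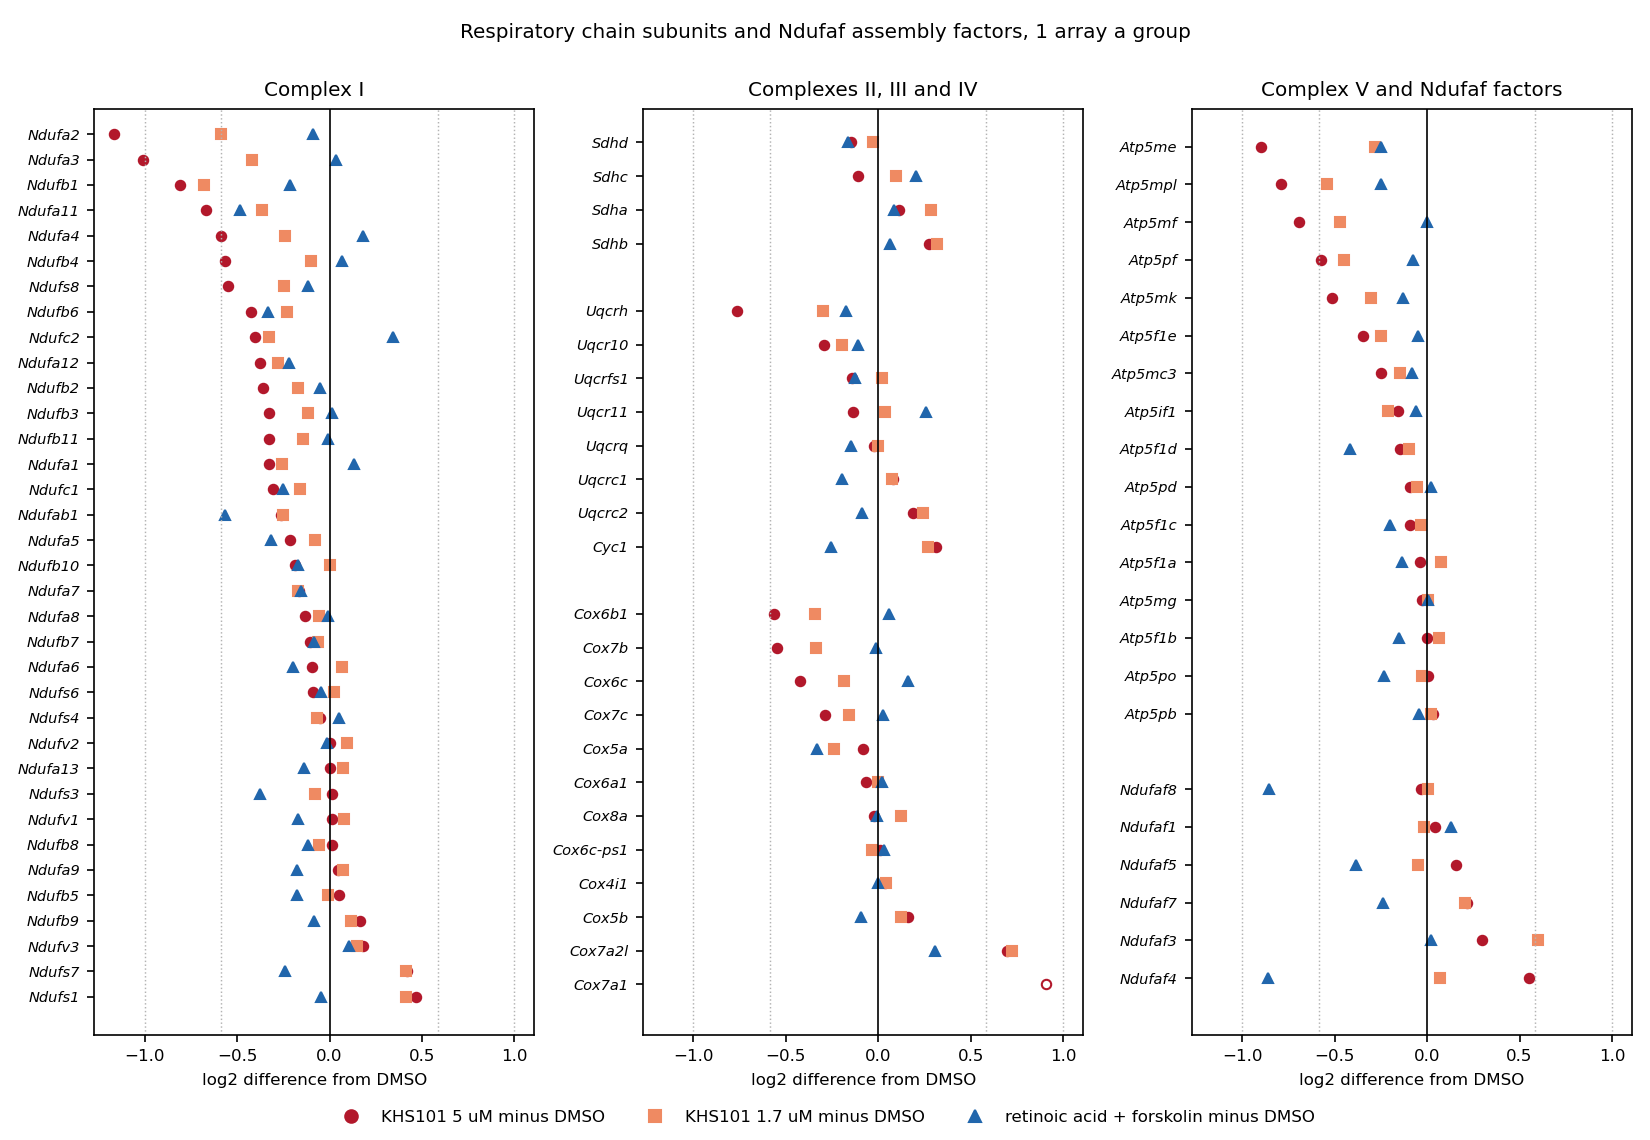
Difference from DMSO in log2 units (x axis) for every measured subunit and Ndufaf gene, by complex, with dark red circles for KHS101 at 5 uM, orange squares for KHS101 at 1.7 uM and blue triangles for RA + forskolin. The open circle is a lower bound, and dotted lines mark 1.5-fold and 2-fold. Each complex is sorted by its KHS101 5 uM value, and 13 of the 16 complex V genes have a circle left of 0.

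Complex I had 35 measured genes with a median of -0.19, and 24 of them were below 0. Its matrix arm holds an N module, which oxidises NADH, and a Q module, which reduces coenzyme Q, and its membrane arm pumps protons. The division into these modules was added after the data were seen. The 8 genes of the N module had a median of -0.03, the 7 of the Q module -0.09 and the 19 of the membrane arm -0.32, with 15 of those 19 below 0.

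Ndufa2, an accessory subunit of the N module, gave 10.53 with KHS101 at 5 uM, 11.11 at 1.7 uM, 11.60 with RA + forskolin and 11.69 with DMSO. Both KHS101 arrays were below the other arrays, and the difference at 5 uM from DMSO was -1.16 (2.24-fold lower). Ndufa3, a small membrane-arm subunit, gave 11.13, 11.73, 12.18 and 12.14 in the same order, a difference of -1.01 (2.01-fold lower). Here too the 5 uM array was the lowest, and RA + forskolin was about level with DMSO. Ndufb1, another small membrane-arm subunit, gave 11.68 and 11.82 with KHS101 at 5 and 1.7 uM, 12.28 with RA + forskolin and 12.49 with DMSO, and was 1.75-fold lower at 5 uM. Ndufa11, also of the membrane arm, gave 10.87, 11.18, 11.05 and 11.54 in that order, so that all treated arrays were below DMSO. Ndufa4, which was first assigned to complex I and was later found in complex IV, gave 13.13, 13.48, 13.90 and 13.72. It was just past 1.5-fold at 5 uM (-0.59), and the RA + forskolin array was the highest. Just inside the same limit stood Atp5pf (-0.58), Ndufb4 (-0.57) and Cox6b1 (-0.56).

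The catalytic subunits of complex I went several ways. Ndufs1, which carries iron-sulfur clusters of the N module, gave 12.04 with KHS101 at 5 uM, 11.99 at 1.7 uM, 11.53 with RA + forskolin and 11.57 with DMSO. Ndufs7, which carries the last cluster before coenzyme Q, gave 12.52, 12.51, 11.86 and 12.10 in that order. In both genes the KHS101 arrays were above the others, by 0.47 and 0.42 over DMSO at 5 uM. Ndufs8, which carries the neighbouring clusters, gave 10.54, 10.84, 10.97 and 11.08, and was lowest at 5 uM (-0.55). Ndufv1, the NADH-binding subunit, and Ndufv2 and Ndufs3 lay close to DMSO at 5 uM, at differences of 0.01, 0.00 and 0.01. Ndufv3, an accessory partner of Ndufv1, was higher by 0.18 in the probe set used and by 0.60 in the other.

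Complex II, which is also an enzyme of the tricarboxylic acid cycle, had 4 core genes and a median of 0.00. Sdha, the flavoprotein, differed from DMSO by 0.11 and Sdhb, the iron-sulfur protein, by 0.28, while the membrane anchors Sdhc and Sdhd differed by -0.11 and -0.15. Sdhb gave 13.65 with KHS101 at 5 uM, 13.69 at 1.7 uM, 13.44 with RA + forskolin and 13.37 with DMSO, with the KHS101 arrays highest.

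In complex III 5 of 8 genes were below 0 and the median was -0.08. Uqcrh, the hinge protein next to cytochrome c1, gave 11.67 with KHS101 at 5 uM, 12.14 at 1.7 uM, 12.27 with RA + forskolin and 12.44 with DMSO. The 5 uM array stood lowest, 1.70-fold below DMSO. Cyc1, cytochrome c1 itself, gave 13.21, 13.17, 12.64 and 12.90 in the same order, so that the KHS101 arrays were above DMSO and RA + forskolin below it. The Rieske iron-sulfur protein Uqcrfs1 differed by -0.14 at 5 uM, the small subunit Uqcr10 by -0.29, and Uqcrc2, a large matrix-facing subunit, by 0.19.

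Complex IV had 12 measured genes with a median of -0.05, and 7 of them were below 0. Cox7a2l, which in mouse and human is known for joining complexes III and IV into supercomplexes, gave 12.60 with KHS101 at 5 uM, 12.63 at 1.7 uM, 12.21 with RA + forskolin and 11.90 with DMSO. It was 1.62-fold higher at 5 uM and the KHS101 arrays were nearly level with each other. Cox6b1, which faces the intermembrane space, gave 12.36, 12.58, 12.98 and 12.93 in that order, and Cox7b gave 13.99, 14.20, 14.53 and 14.54. In both, the 5 uM array was lowest and RA + forskolin lay close to DMSO. Cox4i1, the main form of the largest nuclear-encoded subunit, Cox6a1 and Cox8a lay close to DMSO, at 0.04, -0.07 and -0.03. Cox5b, a zinc-binding subunit, differed by 0.16. The single-symbol probe set of Cox5a gave 7.47, 7.31, 7.22 and 7.55, with DMSO highest.

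Of the tissue isoforms, Cox4i2, Cox6a2, Cox6b2, Cox7b2, Cox8b and the hypoxia-induced Ndufa4l2 were below the floor on all 4 arrays. Cox6a2, Cox7a1 and Cox8b are known as the forms of heart and skeletal muscle, and Cox6b2 and Cox7b2 as forms of testis. Cox7a1 gave 5.91 with KHS101 at 5 uM, 4.74 at 1.7 uM, 4.08 with RA + forskolin and 4.34 with DMSO. It was above the floor on the 5 uM array alone, which puts it at least 0.91 log2 higher than DMSO there. The bound is set by the floor: with a floor of 4 the difference was 1.57, past 2-fold. Of the muscle markers Des, Ckm and Myh6 were at the floor on all arrays. Tnnt2 was above it, at 5.31 with KHS101 at 5 uM, 6.31 at 1.7 uM, 6.16 with RA + forskolin and 6.15 with DMSO. Cox6c-ps1, a pseudogene symbol that the rule admits, was steady between 5.55 and 5.62.

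Complex V had 13 of 16 genes below 0 and a median of -0.15. The division into its parts was added after the data were seen. The 5 genes of the catalytic F1 head had a median of -0.09, the 4 of the peripheral stalk -0.05, and the 5 small membrane subunits -0.69, all 5 of them below 0. Atp5me, the e subunit at the dimer interface, gave 8.75 with KHS101 at 5 uM, 9.36 at 1.7 uM, 9.39 with RA + forskolin and 9.64 with DMSO. It was the lowest of the complex relative to DMSO (1.86-fold lower at 5 uM), and the other treated arrays were close to each other. Atp5mpl, the small proteolipid, gave 11.76, 12.01, 12.29 and 12.55 in that order, and Atp5mf, the f subunit, gave 13.82, 14.04, 14.51 and 14.51. Both were past 1.5-fold at 5 uM, and in Atp5mf the RA + forskolin array was level with DMSO. Atp5mk differed by -0.52, and Atp5mg, the g subunit, by -0.03. The alpha and beta subunits of the head, Atp5f1a and Atp5f1b, differed by -0.04 and 0.00, the gamma and delta subunits Atp5f1c and Atp5f1d by -0.09 and -0.15, and the epsilon subunit Atp5f1e by -0.35. Atp5mc3, a gene for the proton-carrying c subunit, differed by -0.25, and Atp5if1, the inhibitor of the synthase, by -0.16. The stalk subunit Atp5pb differed by 0.03 and Atp5po by 0.00.

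**Figure D3:**
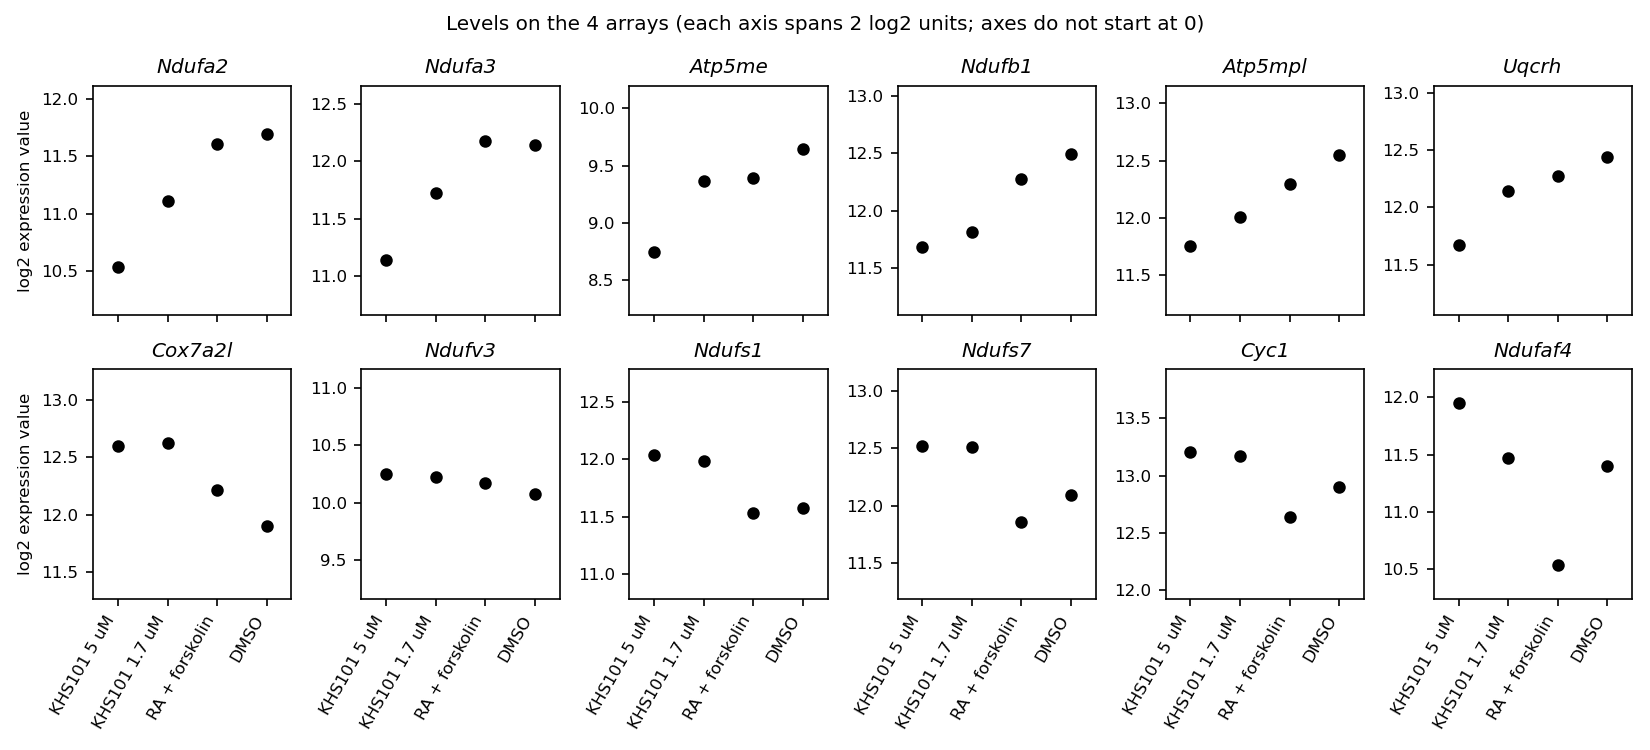
Log2 expression value (y axis) on each of the 4 arrays (x axis) for 12 members, with 1 point for each array and no error bars because there are no replicates. Every y axis spans the same length of 2 log2 units and none starts at 0. In the upper row the KHS101 5 uM point is the lowest, and in the lower row the KHS101 points lie above DMSO.

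A further 7 probe sets named a subunit together with a near copy and were left out by the rule. They covered Atp5mc1, Atp5mc2, Cox7a2, Cox5a, Ndufa10, Ndufs5 and Uqcrb, whose signal cannot be divided between the copies. At 5 uM they differed from DMSO by between -0.52 and 0.00. The lowest were the Ndufs5 and Cox7a2 probe sets, the second of which gave 13.80 with KHS101 at 5 uM, 13.90 at 1.7 uM, 14.38 with RA + forskolin and 14.31 with DMSO.

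With KHS101 at 1.7 uM against DMSO, a comparison that shares the DMSO array with the one above, differences were smaller. Of 74 measured subunits 47 were below 0 (63.5%, against 51.0% of all measured genes), and the median was -0.06, against -0.01 over all genes. No subunit passed 2-fold in either direction, against 4.36% of all measured genes that were higher and 4.27% that were lower. At 1.5-fold 1 was higher (10.5% over all genes) and 2 were lower (10.6%). The higher one was Cox7a2l (0.72) and the lower ones were Ndufb1 (-0.68) and Ndufa2 (-0.59), of which 1 passed after quantile normalization. The core had a median of 0.08 and the accessory subunits a median of -0.11. By complex the medians were -0.08 for complex I, 0.19 for complex II, 0.03 for complex III, -0.04 for complex IV and -0.12 for complex V. Ndufs1 and Ndufs7 were each higher by 0.41, Sdhb by 0.32, Sdha by 0.28, Cyc1 by 0.27 and Uqcrc2 by 0.24. Atp5mpl differed by -0.54, Atp5mf by -0.47, Cox6b1 and Cox7b by -0.34 each, and Uqcrh by -0.30.

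The KHS101 arrays can also be set against each other directly. At 5 uM against 1.7 uM, 57 of 75 subunits were below 0 (76%, against 51.1% of all measured genes), with a median of -0.09 against -0.01 over all genes. At 1.5-fold 1 subunit was higher (3.62% over all genes), which was Cox7a1 as a bound of at least 0.91, and 2 were lower (6.27%), which were Atp5me (-0.62) and Ndufa3 (-0.59), of which 1 passed with arrays centred on their median. Ndufa2 followed at -0.58. The highest subunits after Cox7a1 were Cox5a (0.16) and Ndufs3 (0.09), and the probe set shared by Cox5a and a second gene gave -0.01. All 4 complex II genes were below 0, at -0.21 to -0.04, and the core (-0.07) and the accessory subunits (-0.10) had similar medians.

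With RA + forskolin against DMSO, again with the shared DMSO array, differences were small and mostly negative, and the core median was below 0 as well. Of 74 measured subunits 53 were below 0 (71.6%, against 52.5% of all measured genes), with a median of -0.09 against -0.03 over all genes. Among genes with a mean level over 11, the median was -0.09 for 68 subunits and -0.06 for all 1934 genes. At that level 72.1% of the subunits were below 0, against 57.8%. No subunit passed 2-fold, against 4.34% of all measured genes that were higher and 3.15% that were lower, and none passed 1.5-fold, against 11.3% higher and 12.2% lower. The core had a median of -0.14 with 14 of 17 genes below 0, and the accessory subunits had a median of -0.08. By complex the medians were -0.11 for complex I, 0.07 for complex II, -0.14 for complex III, 0.02 for complex IV and -0.11 for complex V.

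The lowest subunit under RA + forskolin was Ndufab1, the mitochondrial acyl carrier protein that is also part of complex I, at -0.56. It gave 13.05 with KHS101 at 5 uM, 13.06 at 1.7 uM, 12.75 with RA + forskolin and 13.31 with DMSO. The RA + forskolin array was lowest and DMSO highest. Ndufa11 followed at -0.49, Atp5f1d at -0.42, Ndufs3 at -0.37, and Ndufb6 and Cox5a at -0.33 each. All 7 Q module genes and all 5 genes of the F1 head were below 0, with medians of -0.19 and -0.15. The highest was Ndufc2, a membrane-arm subunit, at 0.34, with 12.65 and 12.72 with KHS101 at 5 and 1.7 uM, 13.39 with RA + forskolin and 13.05 with DMSO. Here the KHS101 arrays were below DMSO and RA + forskolin above it. Cox7a2l was higher by 0.31, Uqcr11 by 0.26, Sdhc by 0.20, Ndufa4 by 0.18 and Cox6c by 0.16. Atp5pd and Atp5mg lay at 0.02 and 0.00, Atp5mpl at -0.25, Cyc1 at -0.26 and Uqcrc1 at -0.20.

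Set against RA + forskolin, KHS101 at 5 uM had a core median just above 0 and an accessory median just below it. The median was -0.02 over 75 subunits and 0.00 over all genes (0.00 and 0.02 with arrays centred on their median), and 43 were below 0 (57.3%, against 50.1%). At 2-fold 0 subunits were higher (8.94% over all genes) and 2 were lower (10.2%), which were Ndufa2 (-1.07) and Ndufa3 (-1.04). At 1.5-fold 2 were higher (18.7%), Ndufs7 at 0.66 and Cox7a1 as a bound of at least 0.91, and 10 were lower (20.0%). After Ndufa2 and Ndufa3 the largest reductions were those of Ndufa4 (-0.77) and Ndufc2 (-0.74). The core had a median of 0.10, with 13 of 17 genes above 0, and the accessory subunits a median of -0.10, with 39 of 58 below 0. Cyc1 was higher by 0.57 and Ndufs1 by 0.51. At 1.7 uM against RA + forskolin 34 of 74 subunits were below 0 (45.9%, against 49.8%), with a median of 0.04. At 1.5-fold 1 was higher (13.8% over all genes), again Ndufs7 (0.65), and 1 was lower (13.1%), Ndufc2 (-0.67). The core had a median of 0.22 and the accessory subunits a median of -0.03. These comparisons share the RA + forskolin array with each other and the KHS101 arrays with those above.

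The Ndufaf assembly factors, which help to build complex I and are not part of it, were described apart. All 6 were above the floor on all arrays. With KHS101 at 5 uM their median difference from DMSO was 0.19, with 1 of 6 below 0, against 49.8% of all measured genes. At 1.7 uM the median was 0.04. With RA + forskolin it was -0.31, with 4 of 6 below 0, against 52.5% of all measured genes. The other assembly factors described below had a median of -0.16 there, with 35 of 49 below 0 (71.4%). Ndufaf4, which acts on the early matrix-arm intermediate of complex I, gave 11.95 with KHS101 at 5 uM, 11.47 at 1.7 uM, 10.54 with RA + forskolin and 11.40 with DMSO. The 5 uM array was highest and RA + forskolin lowest, with a difference of -0.86 from DMSO, and the difference between the 5 uM and RA + forskolin arrays was 1.41. Ndufaf8, the partner of the Ndufs7-modifying Ndufaf5, gave 10.67, 10.71, 9.85 and 10.71 in that order, so that the RA + forskolin array alone stood apart, with a difference of -0.85 from DMSO. Ndufaf3, which works with Ndufaf4, gave 11.05, 11.35, 10.77 and 10.75, and was highest at 1.7 uM (1.51-fold above DMSO). Ndufaf1 was near the floor, at 5.06 to 5.21. Ndufaf7, which methylates a Q module subunit, had 2 probe sets that differed from DMSO at 1.7 uM by -0.04 and 0.21.

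Other mitochondrial lists were read beside the subunits. The 49 other assembly factors had a median of 0.00 with KHS101 at 5 uM against DMSO, with 3 of them lower by 2-fold, which is no excess over the 8.10% of all measured genes. These were Cmc2 (-1.21) and Pet100 (-1.11), which serve complex IV, and Dmac2 (-1.03), which serves complex I. Genes of the tricarboxylic acid cycle (16 measured) had medians of 0.08 with KHS101 at 5 uM, 0.17 at 1.7 uM and -0.08 with RA + forskolin. Of these 16, 0 passed 2-fold against DMSO in any of the 3. Over all measured genes 6.16% were higher and 8.10% lower by 2-fold at 5 uM. The shares were 4.36% and 4.27% at 1.7 uM, and 4.34% and 3.15% with RA + forskolin. The 14 measured genes of coenzyme Q synthesis and electron carriers had medians of -0.19, -0.10 and 0.00 in the same order. Of these 14, 0 passed 2-fold, against the same shares. The 73 genes of the mitochondrial ribosome had medians of 0.01, -0.06 and -0.32. With RA + forskolin 68 of these 73 were below 0, against 52.5% of all measured genes, and 15 were lower by 1.5-fold, against 12.2%. Mrpl38 alone was lower by 2-fold (-1.25), against 3.15%. Mrpl38 gave 10.77 with KHS101 at 5 uM, 10.22 at 1.7 uM, 8.76 with RA + forskolin and 10.01 with DMSO. With KHS101 at 5 uM Mrpl14 (-1.13) and Mrpl42 (-1.02) were lower by 2-fold, against 8.10% of all measured genes. The 27 measured genes of mitochondrial import and outer membrane had medians of -0.03, -0.09 and -0.36. Timm17b (-1.06) alone was lower by 2-fold at 5 uM, against 8.10% of all measured genes. Timm9 (-1.15) alone was lower by 2-fold with RA + forskolin, against 3.15%.

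Among 19 measured regulators of mitochondrial biogenesis the medians were 0.10 with KHS101 at 5 uM, -0.05 at 1.7 uM and -0.35 with RA + forskolin. Nfe2l2, which encodes the antioxidant factor NRF2, gave 11.42 with KHS101 at 5 uM, 10.25 at 1.7 uM, 9.18 with RA + forskolin and 9.03 with DMSO. It was 5.24-fold higher at 5 uM and 2.32-fold higher at 1.7 uM. No other of the 19 was higher by 2-fold there, against 6.16% and 4.36% of all measured genes. Pprc1, a coactivator of NRF1, gave 10.65, 10.34, 8.94 and 9.98 in that order, and Polg2, the accessory subunit of the mitochondrial DNA polymerase, gave 7.32, 6.50, 5.49 and 6.55. These 2 of 19 were lower by 2-fold with RA + forskolin, against 3.15% of all measured genes. Nrf1, Tfam and Ppargc1a, named here for their known roles after their values were seen, gave no 2-fold difference. Nrf1 gave 8.54, 8.26, 8.13 and 8.56, Tfam gave 12.04, 11.85, 11.57 and 12.22, and Ppargc1a was below the floor on all arrays.

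The 40 measured cytosolic ribosomal protein genes were a list added after the data were seen. Their medians against DMSO were 0.17 with KHS101 at 5 uM, 0.14 at 1.7 uM and -0.11 with RA + forskolin. At 5 uM 4 of these 40 were below 0, against 43 of the 58 measured accessory subunits and 49.8% of all measured genes. The part of transcript length or level in these differences was not tested. The 10 reference genes, which include Sdha, had medians of -0.04, 0.01 and 0.02.

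**Figure D4:**
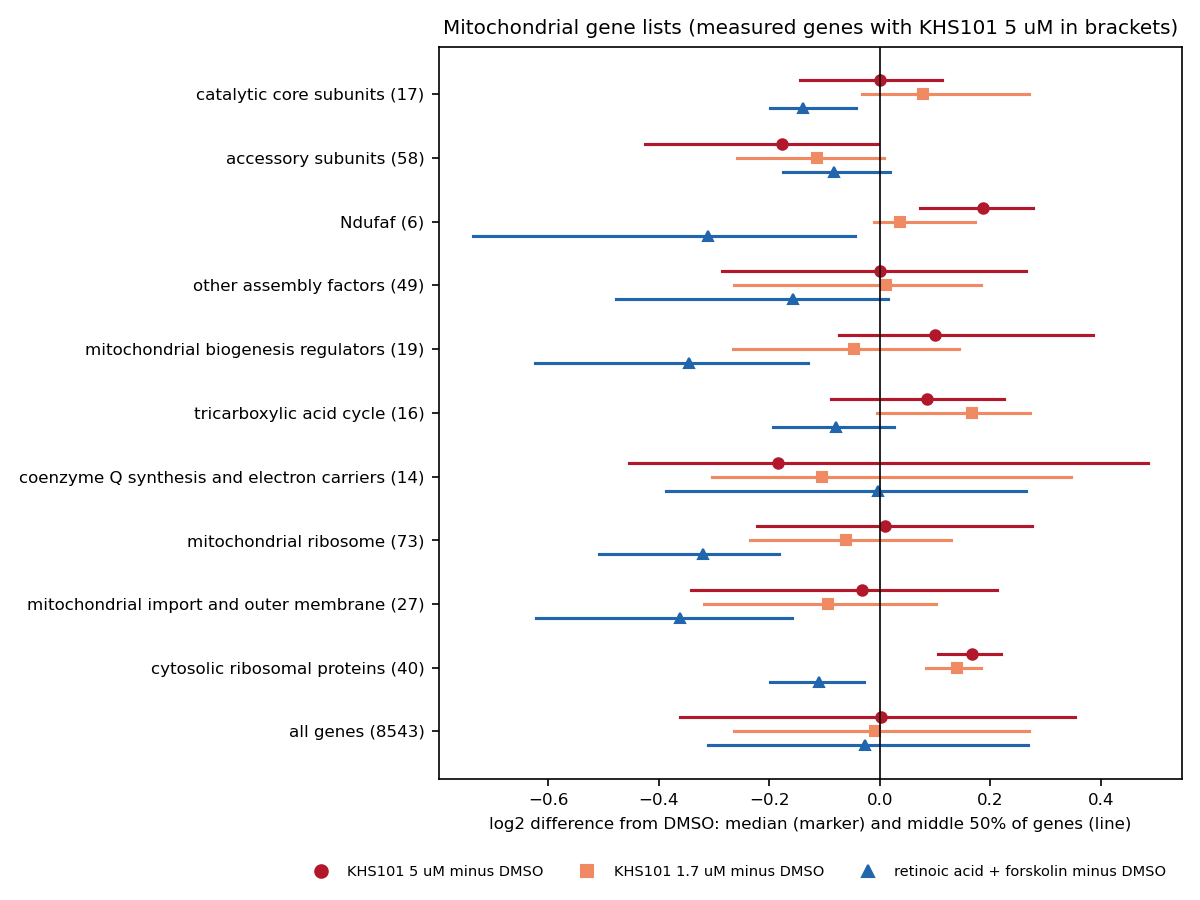
Median (marker) and middle 50% (line) of the difference from DMSO in log2 units for the catalytic core, the accessory subunits, the Ndufaf genes and other mitochondrial lists, with the measured number of genes in brackets. Dark red circles are KHS101 at 5 uM, orange squares are KHS101 at 1.7 uM and blue triangles are RA + forskolin. The accessory subunits lie left of the core for both KHS101 arrays. For RA + forskolin the whole line lies left of 0 for the core, the Ndufaf genes and the biogenesis regulators. The same holds for the mitochondrial ribosome, the import and the cytosolic ribosomal lists.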

How the data were processed

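RNA of 4 groups, each 1 array with no replicate, was measured on Affymetrix rat arrays. The deposited values are log2 expression values of 31099 probe sets; per the submitters' processing notes, the tools were GCRMA and R 2.6.2. That they are on a log2 scale was read from their range. At equal rank the columns differed by a median of 0.06, so a shift of all genes in 1 direction would not show in them. Of the probe sets, 20826 carried 1 gene symbol in the platform annotation, 436 carried several and 9780 carried none, and the last 2 kinds entered no gene count. Gene identifiers of 20758 matched a RefSeq gene table, and 0 symbols needed an update.

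Values under log2 = 5 were raised to 5. Where a gene had several probe sets, the brightest on average was used. Differences were taken in 6 comparisons, called at 2-fold and counted at 1.5-fold and by side of 0, and with 1 array at the floor a difference is a lower bound. No statistical test was possible. The calculation was tested on simulated data. Named genes were the core, the isoforms, members called at 2-fold, the 2 largest differences each way per complex, and called genes of other lists. The members and the 11 lists were chosen with earlier results of these data known, and 7 lists were added later. The alternatives were floors of 4 and 6, no floor, the mean of a gene's probe sets, centring on array medians, and quantile normalization. Python 3.11.15, numpy 2.4.6, pandas 2.3.3 and matplotlib 3.10.9 were used.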

Additional observations from a re-analysis of the deposited data

How the results depend on the processing

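No paired analysis was possible because each group has 1 array. Under the 6 alternatives, all of them planned, no median over the subunits or over a complex moved by more than 0.07 log2. Of these medians 4 took the other sign, all of them close to 0: the median over the subunits in KHS101 5 uM against RA + forskolin was 0.0048 with centred arrays, which took the median of all genes to 0.02, and the complex IV median became positive in that comparison with centred arrays and with quantile normalization, and in 1.7 uM against RA + forskolin with a floor of 6. Of 2883 recomputed member differences 25 took the other sign, and the largest of these was 0.09 in size. Of the member differences 15 moved by more than the probe-set gap of 0.10, among them Cox7a1, whose difference for KHS101 5 uM against DMSO was 1.57 with a floor of 4 and with no floor. Counts past a limit changed with the floor and the scaling. With a floor of 4, 3 subunits instead of 2 passed 2-fold in KHS101 5 uM against DMSO, 3 instead of 2 in 5 uM against RA + forskolin and 1 in 5 uM against 1.7 uM, and 2 were higher by 1.5-fold in KHS101 1.7 uM against RA + forskolin. With a floor of 6, the subunits higher by 1.5-fold numbered 1 for KHS101 5 uM against DMSO, 0 for 5 uM against 1.7 uM and 1 for 5 uM against RA + forskolin. With no floor, subunits past 2-fold numbered 4 for KHS101 5 uM against DMSO, 1 for RA + forskolin against DMSO, 2 for 5 uM against 1.7 uM, 5 for 5 uM against RA + forskolin and 1 for 1.7 uM against RA + forskolin. With no floor, those higher by 1.5-fold numbered 2 for KHS101 1.7 uM against DMSO, 1 for RA + forskolin against DMSO, 2 for 5 uM against 1.7 uM and 3 for 1.7 uM against RA + forskolin, where 2 were lower by 1.5-fold. Smaller shifts without a floor were 3 higher and 10 lower by 1.5-fold for 5 uM against DMSO, 3 lower for 1.7 uM against DMSO, and 3 higher and 11 lower for 5 uM against RA + forskolin. These additions without a floor lie in genes at or near the floor by construction. With arrays centred on their median, and with quantile normalization, 1 subunit instead of 2 passed 2-fold in KHS101 5 uM against DMSO. Centring left 1 lower by 1.5-fold in 5 uM against 1.7 uM, and quantile normalization left 1 lower by 1.5-fold in 1.7 uM against DMSO. A further limit is the single array for each group: culture and array effects cannot be told apart from treatment.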
